A study of Cricetulus griseus with 8 samples.

Results

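The genes described here are those of NRF2, glutathione and the antioxidant enzymes in LR73 cells that met apoptotic cells. They were taken from the deposited table by symbol: of 45 listed symbols 40 were found among 26776 named genes, and 38 of these averaged 10 normalized counts or more and were tested. LR73 is a line derived from Chinese hamster ovary cells, labelled as a fibroblast, that engulfs dying cells. RNA was sequenced from LR73 cells alone (4 libraries) and from LR73 cells co-cultured with apoptotic Jurkat cells (4 libraries). The Jurkat line comes from a human T cell lymphoma, and its cells were given UV-C light at 1500 mJ and then kept in culture for 4 h before the phagocytes received them. All cultures were in alpha-MEM with serum. Neither the length of the co-culture nor what the table's column prefix GFP stands for is given in the sources used here, and nothing in the labels tells whether the 4 biological replicates of a group were separate cultures, so p-values measure the spread between these libraries. A normalized count is a read count divided by the library's size factor, and it does not correct for transcript length, so levels of different genes are not compared.

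NRF2, encoded by Nfe2l2, is the transcription factor that switches on genes of glutathione synthesis, thioredoxin recycling, quinone reduction and drug export when electrophiles or oxidants reach a cell. At rest the adaptor KEAP1 and the ubiquitin ligase CUL3 hold NRF2 down, and oxidation of KEAP1 frees it to enter the nucleus, where it binds antioxidant response elements together with a small MAF protein. BACH1 occupies many of the same elements as a repressor and is removed by heme, which makes the heme oxygenase gene Hmox1 a target with an input of its own. Phagocytes that digest other cells take in their heme, iron, lipids and proteins, and peroxide and lipid peroxides are handled by glutathione peroxidases, peroxiredoxins and catalase.

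Hmox1 rose with apoptotic cells, and Nfe2l2, Gclm, Txnrd1, Txnrd2, Srxn1, Osgin1, Mgst1 and Mgst3 fell, with changes from -8.24% for Srxn1 to -24.5% for Txnrd2. Hmox1, Nfe2l2 and Txnrd2 were called under all 18 alternatives tried, while each of the other 6 lost its call under 2 to 9 of them. NRF2 targets were found among the called genes, Hmox1, Txnrd1 and Osgin1 for example, and among those not called, Nqo1 and Gclc for example. Nqo1 had a log2 fold change of -0.21 and groups that did not overlap. None of 17 genes grouped as further targets in a wider list was called. Sqstm1, an NRF2 target which that list groups with the regulators, was called lower (log2 fold change -0.72). Of the 38 tested genes, 1 was higher and 8 were lower by limma at an adjusted p under 0.05, and 29 were not called. The called share was 23.7% here against 11.7% of all 13494 tested genes, with 2.63% higher against 6.36% and 21.1% lower against 5.31%. These shares only describe the list, as its genes were chosen with earlier results of these data known. The median log2 fold change was -0.09, against 0.001 over all tested genes, and 29 of the 38 estimates lay below 0. In 15 of the 38 genes the groups did not overlap, 13 of them lower and 2 higher, a share of 39.5% where all tested genes had 21.2% (9.72% lower and 11.4% higher). At the same threshold the authors' deposited table had 1 of these 38 genes higher and 7 lower, where 12.2% of all its genes with an adjusted p were called (6.71% higher and 5.48% lower). Osgin1, at an adjusted p of 0.0512 in the authors' deposited table, was the only gene of the 9 called here that was not called there.

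Depth ran from 22.7 to 29.7 M (mega) reads per library over the named genes. Library 1 of the cells alone stood apart from the other libraries. Among the libraries of cells alone it had the highest level in 26 of the 38 tested genes and the lowest in 7. These counts were not taken over all tested genes. The library's median absolute distance from the mean of the others was 0.19 on the log2 scale for these genes and 0.17 for all tested genes. The other libraries of that group had 0.05 to 0.12 and 0.06 to 0.10. With its sign kept, the median distance of library 1 was 0.15 for these genes and 0.006 for all tested genes. Alone library 2 was the lowest of its group in 24 of the 38. Its median signed distance was -0.10 for these genes and -2.78e-05 for all tested genes. When alone library 1 was left out, limma had 2 of the 38 genes higher and 15 lower. That was 44.7% of them against 26.0% of all tested genes, of which 13.4% were higher and 12.5% lower. All 9 genes called with every library were among these 17, and the median log2 fold change was -0.05. Leaving out any 1 co-culture library left 2 to 4 genes lower, leaving out alone library 3 left 4 and alone library 4 left 5, and Hmox1 was the only one of the 38 called higher in each of these. The share of all tested genes called lower changed with them, to 2.64% to 3.07% without a co-culture library, 2.86% without alone library 3 and 3.62% without alone library 4. Fibroblast markers were checked against the label: 12 of 16 in the table averaged 10 normalized counts or more, with Vim, Fn1 and Col6a1 among them, while Thy1 was at 0 and Col1a1 at 0.498 normalized counts. Summed over the list they stood at 167027 to 174006 normalized counts in cells alone and at 195180 to 197125 in co-cultures, and their part in the results was not tested. Single markers went both ways, with higher means in co-cultures for 7 and lower means for 8, of which limma called Col6a1 and Vim higher and Dcn lower. Myeloid markers summed to 47.5 to 85.0 normalized counts in cells alone and 51.4 to 73.6 in co-cultures, and epithelial markers to 310 to 338 and 269 to 297.

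**Figure D1:**
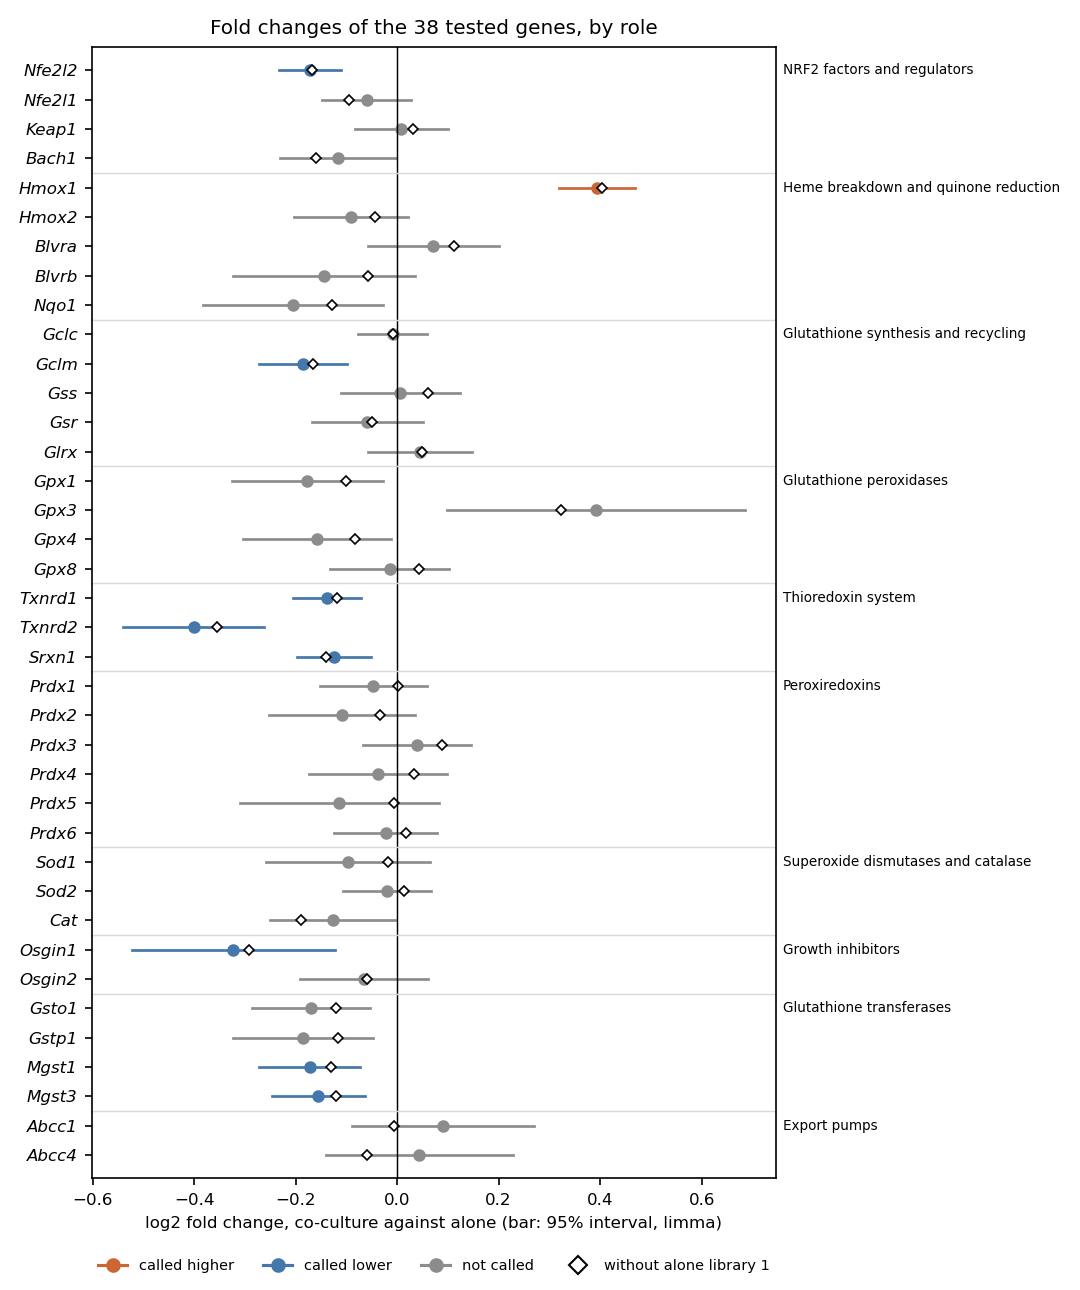
Log2 fold change of co-culture against cells alone for the 38 tested genes, grouped by role, with 95% intervals from limma (4 libraries per group). Orange marks the gene called higher, blue the 8 called lower and grey those not called. Open diamonds give the estimate without alone library 1. Hmox1 stands at 0.39 and Txnrd2 at -0.40. The peroxiredoxins run from -0.11 to 0.04, and each moves to the right without that library.

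Among the NRF2 factors and regulators 1 of 4 was called, against 11.7% of all tested genes. Nfe2l2, which encodes NRF2, stood at 6627, 6509, 6612 and 6572 normalized counts in cells alone and at 5887, 5832, 5925 and 5730 in co-cultures, in the order of the library numbers. Every co-culture library lay below every library of cells alone, and the libraries within a group lay close together. The means were 6580 ± 52.8 and 5843 ± 84.9 normalized counts (SD, n = 4 each), a change of -11.2% and a log2 fold change of -0.17 (limma: SE 0.03, adjusted p = 0.00343). The call was made under every alternative tried, with adjusted p from 3.45e-06 to 0.0244, and alone library 1 did not stand apart for this gene.

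Keap1, the adaptor that hands NRF2 to the CUL3 ligase, stood at 2370, 2191, 2347 and 2126 normalized counts in cells alone and at 2252, 2298, 2251 and 2275 with apoptotic cells. The co-culture values lay inside the range of the cells alone. Its log2 fold change was 0.01 with a 95% interval of -0.08 to 0.10 (limma adjusted p = 0.921), and leaving out alone library 2 gave -0.01 and alone library 4 gave -0.02. Bach1, the repressor that heme removes from these elements, read 2591, 3057, 2785 and 2938 normalized counts in cells alone and 2521, 2582, 2738 and 2631 in co-cultures. The groups overlapped only through alone library 1, the lowest of its group. Bach1 had a log2 fold change of -0.12 (limma: SE 0.05, adjusted p = 0.181, range 0.000919 to 0.365 over the alternatives), and without alone library 1 it was called lower (-0.16, adjusted p = 0.000919). Nfe2l1, a related factor of the endoplasmic reticulum that governs proteasome genes, had -0.06 (limma: SE 0.04, adjusted p = 0.367) with all libraries and was called lower without alone library 1 (-0.09, adjusted p = 0.0102).

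**Figure D2:**
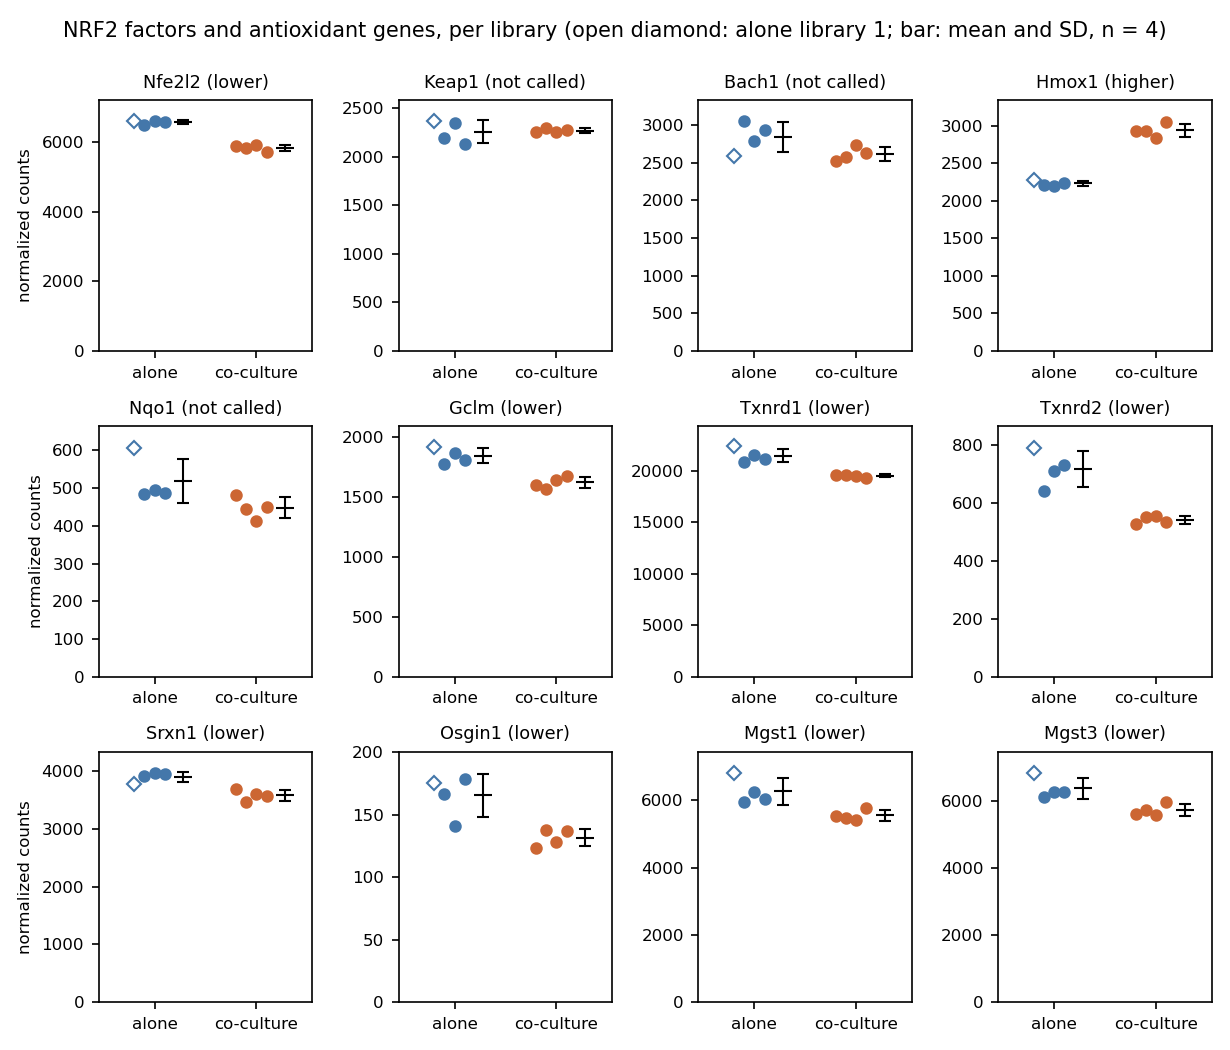
Normalized counts per library (y axis, from 0) for 12 genes in cells alone (blue) and in co-culture (orange), with the mean and SD of 4 libraries beside the points. The open diamond is alone library 1. Hmox1 rises from a mean of 2238 to 2940, Nfe2l2, Gclm, Txnrd1, Txnrd2, Srxn1, Osgin1, Mgst1 and Mgst3 are lower in every co-culture library, and Keap1 and Bach1 overlap between groups.

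Hmox1, a gene of heme breakdown, was the only 1 of the 38 called higher with all libraries. It encodes the inducible heme oxygenase that opens the heme ring and releases iron, carbon monoxide and biliverdin, and stood at 2283, 2219, 2205 and 2244 normalized counts in cells alone and at 2933, 2930, 2846 and 3053 in co-cultures. The groups were far apart compared with the spread inside each. The means were 2238 ± 34.1 and 2940 ± 85.2 normalized counts (SD, n = 4 each), a rise of 31.4% and a log2 fold change of 0.39 (limma: SE 0.03, adjusted p = 7.82e-05). Hmox1 had the 24th smallest p among all tested genes with a positive fold change. It was called under every alternative tried, with adjusted p from 1.75e-18 to 0.00185, and its log2 fold change was 0.40 without alone library 1. Jurkat cells are human T cells, so T cell markers were checked. Single markers went both ways, with higher means in co-cultures for 13 and lower means for 10, and limma called Cd28 and Themis lower and 0 higher. Of 29 T cell markers in the table, 6 were at 0 in every library, Cd3d and Cd3g among them, and the list summed to 1741 to 1901 normalized counts in cells alone and 1644 to 1706 in co-cultures. The 20 markers with at most 5 reads over all libraries of cells alone summed to 0 to 6.09 normalized counts per library there and to 7.69 to 17.6 in co-cultures (11 with more reads and 2 with fewer). The cut was made on the cells alone, which by itself favours more reads in co-cultures. Under the same cut 8 epithelial markers went from 9 to 23 reads and 4 myeloid markers from 11 to 10. The part of the T cell markers in the rise of Hmox1 or in any other result was not tested. In RNA from whole cultures, a lower level can mean fewer cells of a type or less RNA per cell, and these cannot be told apart.

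The other heme and quinone enzymes were not called. Hmox2, the constitutive heme oxygenase, had a log2 fold change of -0.09 (95% interval -0.20 to 0.02). Of the biliverdin reductases, which turn biliverdin into bilirubin, Blvra had 0.07 (-0.06 to 0.20) and Blvrb -0.14 (-0.32 to 0.04). Nqo1, the quinone reductase often used as a readout of NRF2, stood at 606, 485, 496 and 486 normalized counts in cells alone and at 483, 446, 413 and 451 in co-cultures. The groups did not overlap, but the highest co-culture library lay just under the lowest library of cells alone, and alone library 1 was far above the rest. Its log2 fold change was -0.21 (limma: SE 0.08, adjusted p = 0.130, 0.091 to 0.298 over the alternatives), and -0.13 without alone library 1 (adjusted p = 0.106).

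In glutathione synthesis and recycling 1 of 5 tested genes was called, against 11.7% of all tested genes. Gclm, the modifier subunit of glutamate-cysteine ligase, which catalyses the limiting step of glutathione synthesis, stood at 1923, 1781, 1873 and 1810 normalized counts in cells alone and at 1602, 1571, 1646 and 1674 in co-cultures. No library of 1 group reached the other. The means were 1847 ± 63.8 and 1623 ± 45.7 normalized counts (SD, n = 4 each), a log2 fold change of -0.19 (limma: SE 0.04, adjusted p = 0.0132). Without co-culture library 1 or 2 the adjusted p of Gclm was 0.0524 and 0.0506. The catalytic subunit Gclc, by contrast, read 3862 ± 36.6 and 3838 ± 95.6 normalized counts, with a log2 fold change of -0.01 and an interval of -0.08 to 0.06. The difference between both subunits was not tested. Glutathione synthetase Gss, which adds glycine, had 0.01 (-0.11 to 0.12), glutathione reductase Gsr, which returns oxidized glutathione to its reduced form, -0.06 (-0.17 to 0.05), and glutaredoxin Glrx, which uses glutathione to free protein thiols, 0.04 (-0.06 to 0.15) on the log2 scale.

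None of 4 tested glutathione peroxidases, which reduce peroxides with glutathione, was called by limma, edgeR or DESeq2. At an unadjusted limma p under 0.05 there were 3, where 26.5% of all tested genes lay under that threshold. Without alone library 1 there were 2 called, against 26.0% of all tested genes. Gpx4, which removes lipid peroxides from membranes and guards against ferroptosis, read 6881, 5480, 5757 and 5570 normalized counts in cells alone and 5255, 5417, 5034 and 5459 in co-cultures. All co-culture values lay below the cells alone, by a narrow margin for alone library 2, and alone library 1 was the highest by far. The log2 fold change of Gpx4 was -0.16 (limma: SE 0.07, adjusted p = 0.159, 0.0361 to 0.335 over the alternatives), and without that library it was -0.08 and was called (adjusted p = 0.0361). Gpx1, the cytosolic peroxidase, had -0.18 (SE 0.07, adjusted p = 0.121) with all libraries and was called lower without alone library 1 (-0.10, adjusted p = 0.0139). Gpx3, the secreted form, was low at 45.3 ± 6.52 and 59.5 ± 5.97 normalized counts, with a log2 fold change of 0.39 (limma: SE 0.13, adjusted p = 0.0861). Its groups did not overlap, but the highest library of cells alone (52.7) lay just under the lowest co-culture (53.8). Gpx8, of the endoplasmic reticulum, had -0.01 (-0.13 to 0.10) with all libraries and 0.04 without alone library 1. Its relative Gpx7 averaged 6.07 and 7.97 normalized counts and was too low to be tested.

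In the thioredoxin system 3 of 5 tested genes were lower, Txnrd2, Txnrd1 and Srxn1, where 5.31% of all tested genes were called lower. Txn and Txn2, found only under LOC numbers, were not called. Txnrd2, the mitochondrial thioredoxin reductase, stood at 789, 640, 711 and 732 normalized counts in cells alone and at 527, 553, 555 and 534 in co-cultures. The gap between the groups was wide and the co-cultures were tightly grouped. Its means were 718 ± 61.5 and 542 ± 13.7 normalized counts (SD, n = 4 each), a change of -24.5% and a log2 fold change of -0.40 (limma: SE 0.06, adjusted p = 0.00297), with -0.35 without alone library 1 and adjusted p from 7.01e-06 to 0.0171 over the alternatives. Txnrd1, the cytosolic reductase and a classical NRF2 target, read 22428, 20901, 21570 and 21159 normalized counts in cells alone and 19638, 19662, 19480 and 19362 in co-cultures. The co-cultures were again closely grouped below all cells alone. Its log2 fold change was -0.14 (limma: SE 0.03, adjusted p = 0.0154), a call that ended when alone library 3 (adjusted p = 0.0545) or 1 of co-culture libraries 1, 3 and 4 (0.0529, 0.0512 and 0.0563) was left out.

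Srxn1, sulfiredoxin, which repairs overoxidized peroxiredoxins, stood at 3775, 3907, 3956 and 3948 normalized counts in cells alone and at 3676, 3456, 3597 and 3571 in co-cultures. The groups did not overlap, with alone library 1 and co-culture library 1 nearest to each other. The log2 fold change of Srxn1 was -0.12 (limma: SE 0.03, adjusted p = 0.0351), and without alone library 1 it was -0.14 (adjusted p = 0.000447). Leaving out any other 1 library ended the call (adjusted p = 0.0626 to 0.112), and so did testing with no filter (adjusted p = 0.0506). The thioredoxin genes Txn and Txn2 are not in the table under these symbols. Rows under LOC numbers that carry the symbols in the RefSeq table read 24674 ± 2525 and 23534 ± 364 normalized counts for Txn, the small protein that these reductases serve, and 1916 ± 149 and 1825 ± 30.5 for its mitochondrial form Txn2. Their log2 fold changes were -0.06 (95% interval -0.19 to 0.07) and -0.07 (-0.18 to 0.05), not called by limma, and that of Txn was 0.01 without alone library 1. The symbols Txn1, Gsta4 and Gstm1 were not found.

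**Figure D3:**
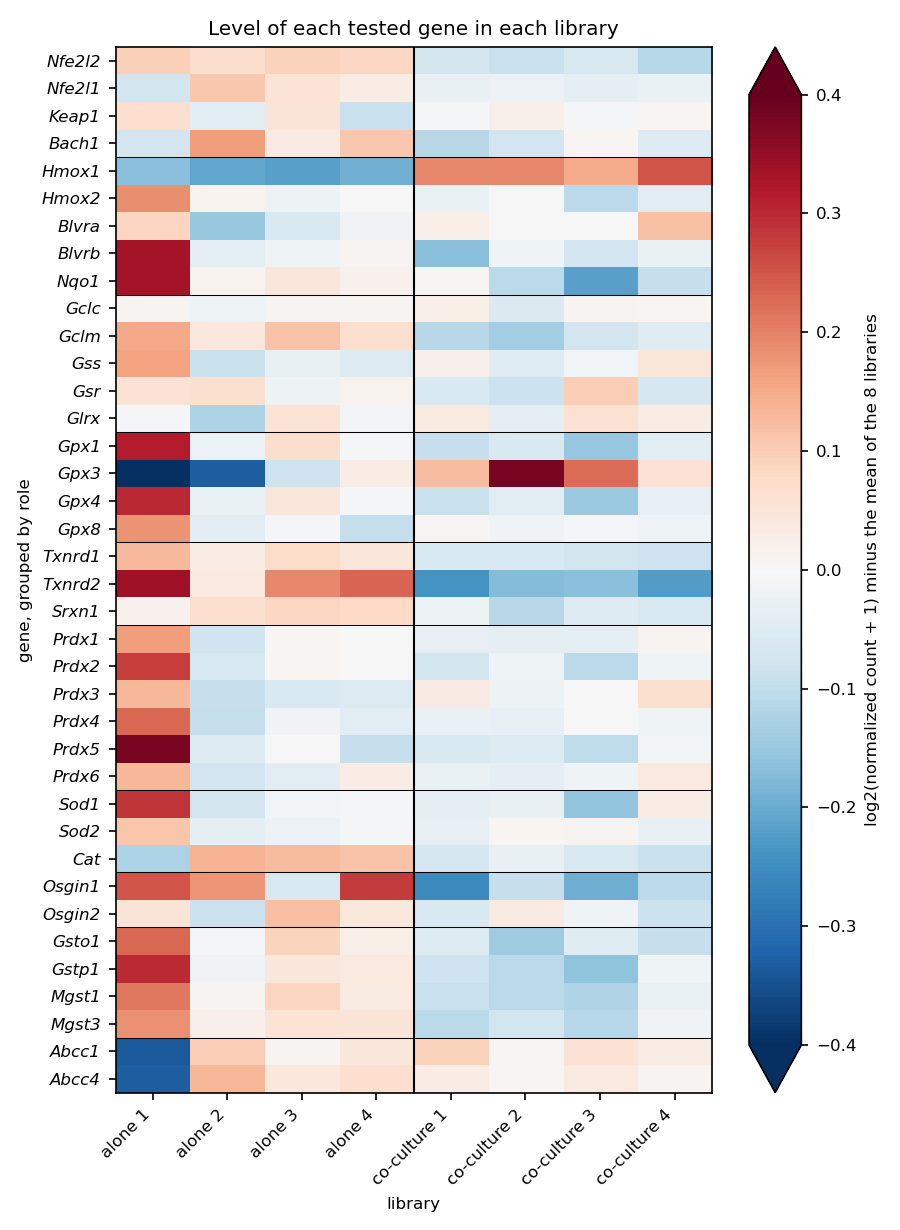
Each of the 38 tested genes (rows, grouped by role) in each library (columns), as log2(normalized count + 1) minus its mean over the 8 libraries, on a colour scale from -0.4 to 0.4. Alone library 1 is darker than the others of its group in many rows. Hmox1, Nfe2l2 and Txnrd2 are among the 15 genes in which all 4 co-cultures lie apart from all 4 libraries of cells alone.

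Peroxiredoxins, the thiol peroxidases that clear most cellular hydrogen peroxide, gave no calls. None of the 6 was called by limma, edgeR or DESeq2, none had an unadjusted limma p under 0.05, and their log2 fold changes ran from -0.11 to 0.04. Prdx1, the main cytosolic form, read 9878, 8318, 8854 and 8786 normalized counts in cells alone and 8600, 8589, 8584 and 8861 in co-cultures. The co-culture values fell within the range of the cells alone. Its log2 fold change was -0.05 (95% interval -0.15 to 0.06), and 0.001 without alone library 1. That library stood above the mean of the other cells alone by 0.16 to 0.43 on the log2 scale in all 6 genes, the most for Prdx5. The estimates were -0.11 for cytosolic Prdx2 and -0.11 for Prdx5 of mitochondria and peroxisomes, and without alone library 1 they were -0.03 and -0.01. Prdx4, of the endoplasmic reticulum, had -0.04 and Prdx6, which also acts on phospholipids, -0.02, and both were above 0 without that library (0.03 and 0.02). Mitochondrial Prdx3 had 0.04 with all libraries (limma adjusted p = 0.643, 0.0106 to 0.878 over the alternatives) and was called higher without alone library 1 (0.09, adjusted p = 0.0106).

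Superoxide dismutases and catalase were not called with all libraries by limma, edgeR or DESeq2. Of the 3 tested genes 1 had an unadjusted limma p under 0.05, against 26.5% of all tested genes. That gene was Cat, the peroxisomal catalase that splits hydrogen peroxide, which stood at 3049, 3662, 3632 and 3600 normalized counts in cells alone and at 3173, 3255, 3179 and 3124 in co-cultures. Alone library 1 was the lowest of all 8, and the other 3 libraries of cells alone were above every co-culture. The log2 fold change of Cat was -0.13 (limma: SE 0.06, adjusted p = 0.177, 8.8e-06 to 0.346 over the alternatives), and -0.19 without alone library 1 (adjusted p = 8.8e-06). Sod2, the mitochondrial manganese dismutase, read 3822, 3441, 3480 and 3518 normalized counts in cells alone and 3461, 3557, 3566 and 3469 in co-cultures. Those groups overlapped, with a log2 fold change of -0.02 (95% interval -0.11 to 0.07), and 0.01 without alone library 1. Sod1, the copper-zinc enzyme of the cytosol, had -0.10 (-0.26 to 0.06). Sod3, the extracellular form, had 1 read in all libraries together.

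Osgin1, an oxidative stress induced growth inhibitor and NRF2 target, stood at 176, 167, 141 and 179 normalized counts in cells alone and at 123, 138, 129 and 137 in co-cultures. The groups did not overlap, but alone library 3 came close to the highest co-culture. Its log2 fold change was -0.32 (limma: SE 0.09, adjusted p = 0.0437). The call ended when alone library 2 (adjusted p = 0.0852), alone library 4 (0.110) or any of the co-cultures was left out (0.0783 to 0.128), with no filter (0.072) and by DESeq2 (adjusted p = 0.0536). The related Osgin2 had -0.07 (95% interval -0.19 to 0.06) and was not called.

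Glutathione transferases, which attach glutathione to electrophiles, had estimates below 0 in all 4 tested genes, and 2 were called lower. Of all tested genes 49.6% had estimates below 0 and 5.31% were called lower. Mgst1, a microsomal transferase that also reduces lipid peroxides, read 6825, 5944, 6267 and 6054 normalized counts in cells alone and 5547, 5477, 5426 and 5789 in co-cultures. Mgst3, a relative in the same membranes, read 6851, 6120, 6272 and 6261 in cells alone and 5608, 5732, 5577 and 5978 in co-cultures. In both genes all co-cultures lay below all cells alone, co-culture library 4 was the closest and alone library 1 the farthest. The log2 fold changes were -0.17 for Mgst1 (limma: SE 0.05, adjusted p = 0.0338) and -0.15 for Mgst3 (limma: SE 0.04, adjusted p = 0.036), and -0.13 and -0.12 without alone library 1. The Mgst1 call ended without alone library 3 (adjusted p = 0.0873) or any 1 of the co-cultures (0.0523 to 0.103), and that of Mgst3 when alone library 3 (0.0785), alone library 4 (0.0648) or 1 of co-culture libraries 1, 2 and 3 (0.0923 to 0.113) was left out. Gstp1, the cytosolic pi-class enzyme, had -0.19 (limma: SE 0.06, adjusted p = 0.0854), and Gsto1, of the omega class, -0.17 (limma: SE 0.05, adjusted p = 0.0648). Neither overlapped between groups, and both were called lower without alone library 1 (-0.12 each, adjusted p = 0.00298 and 0.0139), Gsto1 also without alone library 2 (adjusted p = 0.0464).

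The export pumps Abcc1 and Abcc4, which carry glutathione conjugates and other anions out of the cell, were not called by limma, edgeR or DESeq2, and neither had an unadjusted p under 0.05. Abcc1 had a log2 fold change of 0.09 (95% interval -0.09 to 0.27) and Abcc4 of 0.04 (-0.14 to 0.23). Alone library 1 lay below the mean of the other cells alone by 0.39 and 0.41 on the log2 scale in these genes, and without it the estimates were -0.01 and -0.06.

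**Figure D4:**
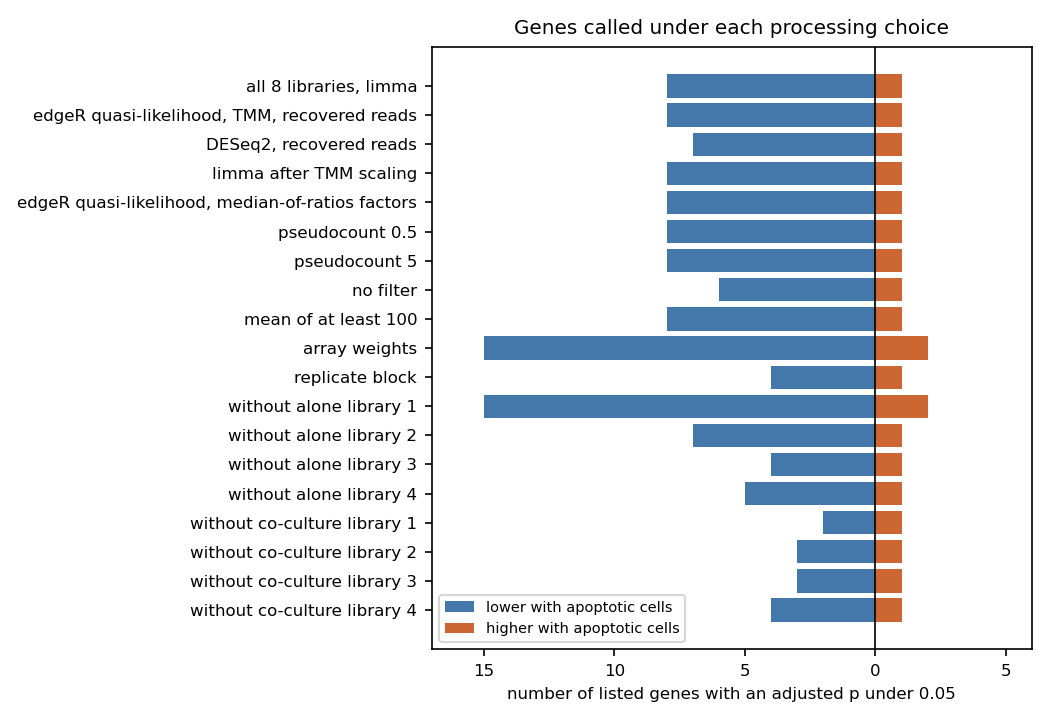
Number of the listed genes with an adjusted p under 0.05 (x axis, lower to the left and higher to the right) under each processing choice (y axis). Limma has 8 lower and 1 higher with all 8 libraries. Leaving out alone library 1 gives 15 and 2, and leaving out the first co-culture library gives 2 and 1.

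Other genes of the pathway were taken from a wider list of 102 symbols, of which 78 were in the table and 58 were tested. Of these 2 were higher and 7 lower by limma, 15.5% against the 11.7% of all tested genes, with 12.1% lower and 3.45% higher, and the median log2 fold change was -0.06. Without alone library 1 there were 3 higher and 12 lower, 25.9% against 26.0% of all tested genes. By direction, 20.7% were then lower against 12.5% of all tested genes, and 5.17% higher against 13.4%. Most of the called genes were partners and regulators of NRF2, 5 of 9 tested, where 11.7% of all tested genes were called. All 3 small MAF genes, whose proteins pair with NRF2 or BACH1 on DNA, fell. Mafg stood at 3256, 3225, 3049 and 3136 normalized counts in cells alone and at 2610, 2436, 2607 and 2463 in co-cultures. These groups lay far apart, with a log2 fold change of -0.32 (limma: SE 0.04, adjusted p = 0.000562). Mafk fell by 0.23 (limma: SE 0.05, adjusted p = 0.0105) and Maff by 0.32 (limma: SE 0.08, adjusted p = 0.0226) on the log2 scale, the Maff call being lost without co-culture library 2, 3 or 4 (adjusted p = 0.0594 to 0.0751).

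Sqstm1, the autophagy receptor p62 that binds KEAP1 and is itself an NRF2 target, read 2397, 2355, 2305 and 2322 normalized counts in cells alone and 1378, 1387, 1429 and 1490 in co-cultures. It had the largest change of all genes described here, -39.4% and -0.72 on the log2 scale (limma: SE 0.04, adjusted p = 3.06e-06). Cul3, the ubiquitin ligase scaffold that acts with KEAP1, moved the other way, from 4068, 4360, 4283 and 4335 normalized counts in cells alone to 4885, 4905, 5015 and 4746 in co-cultures. Every co-culture library lay above every library of cells alone, and the log2 fold change was 0.20 (limma: SE 0.03, adjusted p = 0.00503).

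Further NRF2 targets, a group that does not hold Sqstm1, gave no calls. Of 17 tested, with genes of the pentose phosphate pathway, ferritin and drug export among them, limma, edgeR and DESeq2 each called 0, and 3 had an unadjusted p under 0.05 (Pir, Abcc2 and Nqo2, all with estimates below 0 and named after their values were seen), against 26.5% of all tested genes. Without alone library 1, limma called 2, against 26.0% of all tested genes. In glutathione use and breakdown 0 of 11 were called by limma, edgeR or DESeq2, with 4 at an unadjusted p under 0.05 and 1 called without alone library 1, where all tested genes had 26.5% and 26.0%. In the thioredoxin-like and repair group 3 of 17 were called, against 11.7% of all tested genes. Sesn2, a sestrin induced by stress, averaged 688 ± 25.8 normalized counts in cells alone and 542 ± 38.2 in co-cultures (SD, n = 4 each; log2 fold change -0.35, limma: SE 0.06, adjusted p = 0.00427). Msrb2, a mitochondrial methionine sulfoxide reductase, fell by 0.30 on the log2 scale (limma adjusted p = 0.0343), a call that ended when alone library 4 or any of the co-cultures was left out (adjusted p = 0.0601 to 0.104). Txnip, which binds and inhibits thioredoxin and responds to glucose, rose from 1148 ± 99.6 to 1393 ± 14.1 normalized counts (0.28, limma: SE 0.06, adjusted p = 0.0129). Among 4 tested genes of superoxide production 1 was called, against 11.7% of all tested genes. This was Nox4, an NADPH oxidase that releases hydrogen peroxide, which fell from 2513 ± 65 to 2149 ± 44.4 normalized counts (-0.23, limma: SE 0.03, adjusted p = 0.0026). At an unadjusted limma p under 0.05 there were 3 of the 4, all lower, against 26.5% of all tested genes. Without alone library 1 limma called 2 of them, against 26.0%.

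**Figure D5:**
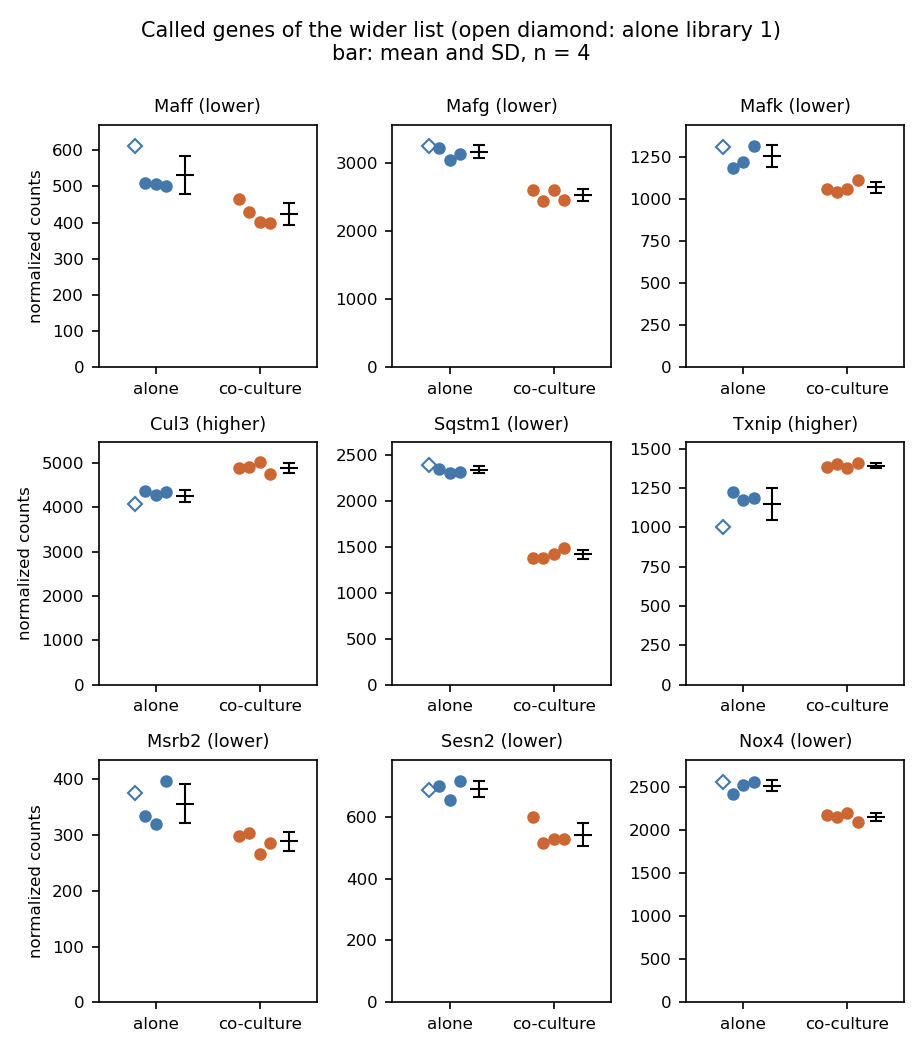
Normalized counts per library (y axis, from 0) for the 9 called genes of the wider list in cells alone (blue) and in co-culture (orange), with the mean and SD of 4 libraries. The open diamond is alone library 1. Sqstm1 falls from a mean of 2345 to 1421, the 3 small MAF genes are lower in every co-culture library, and Cul3 and Txnip are higher in every one.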

How the data were processed

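Per the submitters' processing notes, FastQC, STAR, featureCounts and DESeq2 were used, without versions. Not given in the sources used here are the genome build, annotation, strand setting and handling of reads that match hamster and human alike. The authors deposited 1 table whose per-library signal is gene counts divided by a size factor: 100% of values were whole multiples of 1 read within 0.01 reads, so reads were recovered. Per the file headers, the deposited table also holds a mean signal, a log2 fold change with its SE (-1.09 to 0.976, where limma gave -1.73 to 5.18), a test score and p-values. Columns were matched to labels by number and by the letters AC. A row without a gene name (0.14 to 0.176% of reads) was left out.

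Genes averaging 10 normalized counts or more were tested with limma-trend (limma 3.58.1, R 4.3.3) on log2(normalized count + 1), with group as the only term and Benjamini-Hochberg adjustment over 13494 genes. Folds on this scale understate changes of low genes. edgeR 4.0.16 (quasi-likelihood) and DESeq2 1.42.0 on recovered reads were alternatives: edgeR with TMM factors called 838 genes higher and 726 lower, DESeq2 879 and 716. The members and lists were chosen with earlier results of these data known. Every member in the table is named, and up to 12 called genes of the wider list. On simulated counts for this comparison (13489 genes) limma recovered 42 of 67 genes changed 1.2-fold, 66 of 67 changed 1.5-fold and 66 of 66 changed 2-fold. All simulated libraries had the same spread and none stood apart as alone library 1 did, so recovery in the real libraries can differ. Figures were drawn with matplotlib 3.10.9. All 40 symbols found are in the RefSeq table (CriGri-PICRH-1.0), and as no genome of the files' build was used, neither positions nor sequences are given. No replicates looked like a library deposited again (chi-square per degree of freedom at least 1.56).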

Additional observations from a re-analysis of the deposited data

Results flagged for a closer look

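Among the 47 genes named with a test, 94 groups of 4 libraries were examined for a library whose gap to its nearest neighbour took up a share of the group's range above Dixon's 95% critical value, and 9 were found, where chance gives about 1 in 20 groups. Library 1 of the cells alone was the highest in 5 of them: Hmox2 (0.836 of the range, 1644 normalized counts against 1460 in the next library), Blvrb (0.883, 833 against 665), Nqo1 (0.908, 606 against 496), Prdx3 (0.842, 7718 against 6781) and Maff (0.936, 611 against 509). The same library was the lowest for Cat (0.900, 3049 against 3600). Alone library 2 was the lowest for Gclc (0.923, 3807 against 3876). In the co-cultures, library 3 was the highest for Gsr (0.877, 1063 against 952) and library 4 for Prdx1 (0.941, 8861 against 8600).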

How the results depend on the processing

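The counts moved with the libraries kept. With all libraries 1 listed gene was higher and 8 lower, and with 1 library left out these ran from 1 to 2 and from 2 to 15. The wider list ran from 2 to 3 and from 5 to 12, and all tested genes from 416 to 1811 and from 356 to 1694. Array weights gave 2 and 15 for the listed genes, 4 and 14 for the wider list and 1804 and 1674 for all genes. With a replicate block 4 listed genes were lower, and 498 and 400 of all genes were called. Same-numbered libraries did not deviate together (correlations of -0.09 to 0.07), so the numbers are not taken as pairs. The block ended the calls of Mgst1, Mgst3, Osgin1, Srxn1 and Msrb2 (adjusted p = 0.0634, 0.0811, 0.078, 0.0993 and 0.0505). Matching older symbols, chosen after seeing the data, gave 8 lower in the wider list.

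Of 845 alternative estimates for 47 named genes, 763 kept their direction and call, 45 lost and 17 gained a call, and 20 changed sign, all in genes not called. With array weights these were Gpx8 (0.0346), Prdx4 (0.0151), Prdx6 (0.00661), Sod2 (0.00513) and Abcc4 (-0.0381), and after TMM scaling Gss (-0.00026). With 1 library left out, estimates crossed 0 in Keap1 (-0.0206 to 0.0315), Gclc (-0.0180 to 0.00891), Gss (-0.0226 to 0.0607), Gpx8 (-0.0487 to 0.0422), Prdx1 (-0.0813 to 0.00140), Prdx4 (-0.0760 to 0.0330), Prdx6 (-0.0517 to 0.0184), Sod2 (-0.0368 to 0.0137), Abcc1 (-0.00679 to 0.138) and Abcc4 (-0.0589 to 0.0957). The cause was not tested. The listed genes with the fewest reads were Sod3, Gpx7, Gpx3 and Osgin1, and the effect of depth was not tested.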

Other observations

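Selenoproteins of the wider list were in the table under older symbols. Selenop, listed as Sepp1, encodes the secreted selenium carrier and stood at 854, 705, 755 and 818 normalized counts in cells alone and at 584, 631, 600 and 546 in co-cultures. Its log2 fold change was -0.41 (limma: SE 0.07, adjusted p = 0.0044), with no overlap between groups and -0.36 without alone library 1. Selenow, listed as Sepw1, had -0.03 (95% interval -0.22 to 0.16), Selenok, listed as Selk, -0.10 (-0.27 to 0.06), and Selenos, listed as Vimp, 0.04 (-0.10 to 0.18), and none of these was called by limma. These rows were matched after the values were seen.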
